A study of Homo sapiens with 2 samples.

Results

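The 9 genes described here encode the SETDB1 methyltransferase and its partners (SETDB1, ATF7IP, TRIM28), the HUSH silencing complex and its effector (MPHOSPH8, PPHLN1, MORC2) and the HP1 proteins (CBX1, CBX3, CBX5). They were taken by name from the table of H3K9me3 gene scores, and all 9 were found among its 35812 gene symbols, each with 1 interval. The table comes from 1 chromatin immunoprecipitation and sequencing library, made with 5 µg of an antibody against H3K9me3 (Abcam ab8898) from KBM7 cells, a near-haploid chronic myeloid leukemia line. The labels name no genotype, treatment or time beyond the line and its karyotype. An IgG library of the same cells was not analysed here, so the values stand without replicate or control, and errors are 95% Poisson intervals that cover counting error only. The labelled cell type could not be checked against its markers, since no expression was measured.

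H3K9me3, trimethylation of lysine 9 of histone H3, is the mark of silenced repeats, zinc finger gene clusters and pericentromeric chromatin. SETDB1 writes it, and ATF7IP keeps SETDB1 stable in the nucleus. TRIM28, also called KAP1, brings SETDB1 to sites bound by KRAB zinc finger proteins. HUSH joins the scaffold TASOR, the chromodomain protein MPP8 (MPHOSPH8), which binds H3K9me3, and periphilin (PPHLN1), and works with SETDB1 and with the ATPase MORC2 to silence integrated retroviruses and LINE-1 elements. The HP1 proteins (beta from CBX1, gamma from CBX3, alpha from CBX5) bind H3K9me3 through a chromodomain. The values below are those of the mark over the genes that encode these proteins.

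H3K9me3 gene scores lay below the median of protein-coding genes in 7 of the 9 genes and above it in ATF7IP and MORC2. The score is the read count of the gene interval divided by its length in kb. The median of the 9 genes was 20.7 reads per kb, against 34.3 for the 18632 protein-coding symbols and 43.5 for all symbols. Above the median of all symbols lay 1 of the 9 genes, ATF7IP, where 37.5% of protein-coding symbols and 50.0% of all symbols did so. Against the median of protein-coding symbols 2 genes lay above, ATF7IP and MORC2, and 7 below. The Poisson interval of MORC2 (40.6 to 44.6) includes the median of all symbols, so its side of that median is not settled at this depth. Peaks were called inside 4 of the 9 genes (SETDB1, ATF7IP, PPHLN1 and MORC2), where the share was 43.7% of protein-coding symbols and 36.8% of all symbols. The count of genes with a peak is thus near the background. The PPHLN1 interval is longer than its RefSeq gene, and whether its peak lies inside that gene was not tested. None of the 9 genes lies on chromosome 8, which KBM7 cells are known to carry in an extra copy, and scores were not corrected for copy number.

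**Figure D1:**
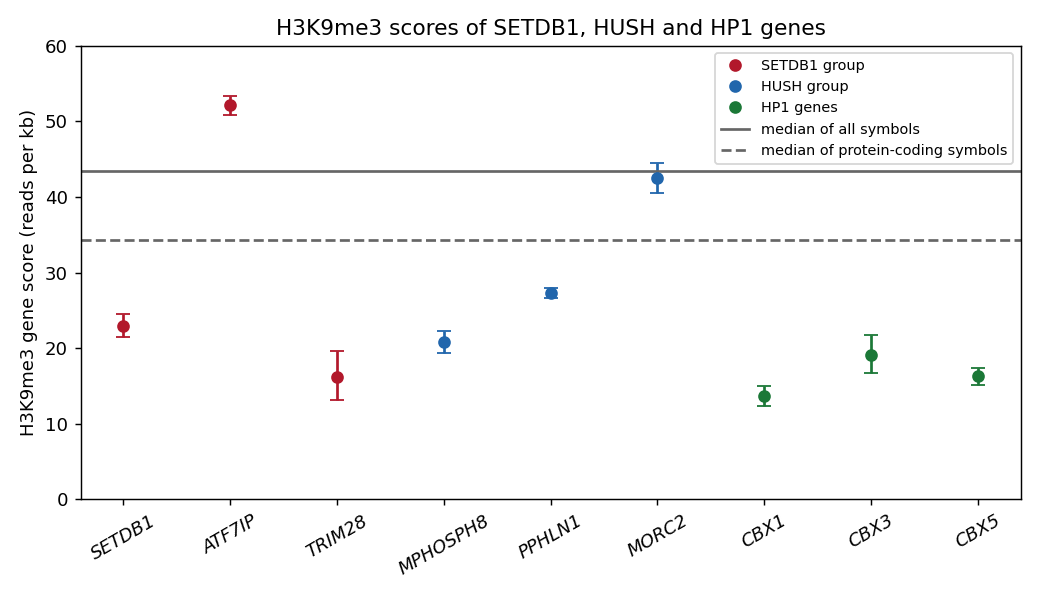
H3K9me3 gene score in reads per kb (vertical axis) of the 9 genes, coloured by group, with exact 95% Poisson intervals as bars; the solid line is the median of all symbols (43.5) and the dashed line that of protein-coding symbols (34.3). ATF7IP at 52.1 lies above both lines, MORC2 at 42.5 between them and the other 7 genes below both.

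No peak lay at the 5' end of the interval of any of the 9 genes. Within 1 kb of the 5' end of the interval 0 of 9 genes had a peak, against 12.4% of protein-coding symbols and 14.2% of all symbols. With 9 genes, a count of 0 is near those shares. Further starts that RefSeq lists for SETDB1, ATF7IP, PPHLN1 and CBX5 were not checked for peaks. The nearest peak was 1.92 kb from the 5' end in MORC2, 3.39 kb in MPHOSPH8, 4.44 kb in TRIM28, 4.56 kb in SETDB1 and 9.41 kb in ATF7IP. In PPHLN1 it was 33.9 kb away, and in the HP1 genes 42.5 kb (CBX3), 69.7 kb (CBX1) and 127 kb (CBX5). Promoter sequence was available from RefSeq for 8 of the 9 genes and not for TRIM28. The 250 bases before the start of the 3 HP1 genes, which have no peak, and of MORC2, which lies next to a broad marked region, are printed as the sequence before starts that had no peak within 1 kb, with each CG dinucleotide in capitals, 5' to 3' on the gene's strand. They are given on GRCh38.p14, at chr17:48101187-48101436 (minus strand) for CBX1, chr7:26201193-26201442 (plus strand) for CBX3, chr12:54280123-54280372 (minus strand) for CBX5, the first of 3 starts listed, and chr22:30968775-30969024 (minus strand) for MORC2. The scores and peaks are on hg19, so the RefSeq start can differ from the 5' end of the interval.
CBX1: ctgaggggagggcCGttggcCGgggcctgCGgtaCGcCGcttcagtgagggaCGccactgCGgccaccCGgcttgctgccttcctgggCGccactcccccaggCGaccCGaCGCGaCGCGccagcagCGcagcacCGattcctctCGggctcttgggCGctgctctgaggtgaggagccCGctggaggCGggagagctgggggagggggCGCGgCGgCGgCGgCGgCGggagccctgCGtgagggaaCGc
CBX3: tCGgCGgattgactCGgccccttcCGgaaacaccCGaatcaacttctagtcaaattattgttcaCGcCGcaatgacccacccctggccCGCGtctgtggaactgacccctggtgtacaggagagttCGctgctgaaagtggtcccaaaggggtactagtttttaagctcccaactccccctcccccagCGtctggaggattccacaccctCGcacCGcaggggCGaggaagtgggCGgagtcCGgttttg
CBX5: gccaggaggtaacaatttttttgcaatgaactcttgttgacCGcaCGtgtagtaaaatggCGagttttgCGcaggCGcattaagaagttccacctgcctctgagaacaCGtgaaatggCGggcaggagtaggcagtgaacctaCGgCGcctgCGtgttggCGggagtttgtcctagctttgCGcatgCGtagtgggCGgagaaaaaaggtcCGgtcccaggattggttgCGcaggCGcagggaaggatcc
MORC2: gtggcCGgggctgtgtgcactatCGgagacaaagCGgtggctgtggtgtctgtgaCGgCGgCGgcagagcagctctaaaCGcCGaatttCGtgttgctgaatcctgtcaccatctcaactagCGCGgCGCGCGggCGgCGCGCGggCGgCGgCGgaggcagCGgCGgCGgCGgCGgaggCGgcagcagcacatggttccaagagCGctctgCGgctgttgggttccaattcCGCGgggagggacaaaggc
The motif CG, which reads the same on both strands, occurred 30 times in the stretch of CBX1, 16 times in that of CBX3, 17 times in that of CBX5 and 31 times in that of MORC2. The median over all 35116 promoters of that length was 11, and 93.9% of them held at least 1. Several starts not printed held fewer. CG occurred 3 and 4 times before the other 2 starts of CBX5, 9 and 20 times before the 2 starts of SETDB1, and 24 and 2 times before the 2 starts of PPHLN1. It occurred 14 times before the first start of ATF7IP and 0 to 2 times before its others, and 26 times before that of MPHOSPH8. Methylation of these dinucleotides was not measured here.

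Within the SETDB1 group the score of ATF7IP was 2.28 times that of SETDB1. ATF7IP, at 14518610 to 14651697 of chromosome 12 (hg19, plus strand, 133 kb), held 6937 reads and scored 52.1 (95% Poisson interval 50.9 to 53.4). SETDB1, at 150898739 to 150937213 of chromosome 1 (plus strand, 38.5 kb), held 881 reads and scored 22.9 (21.4 to 24.5). The interval of their ratio was 2.12 to 2.44. TRIM28, at 59055836 to 59062082 of chromosome 19 (plus strand, 6.25 kb), held 101 reads and scored 16.2 (13.2 to 19.6), which is 0.706 times SETDB1 (0.569 to 0.868). The difference between each pair is larger than the counting error, and no replicate bears on it.

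ATF7IP carried 7 peaks, spread along its length. The first spanned 14531251 to 14534550, 3300 bp wide, with its centre 14.3 kb from the 5' end, or 10.7% of the gene length. Peaks of 1200 bp and 1350 bp followed at 14562451 to 14563650 (33.4% of the length) and 14576701 to 14578050 (44.2%). Near the middle of the gene a peak at 14581951 to 14582400 abutted one at 14582401 to 14584350, and a further peak of 450 bp lay at 14584801 to 14585250, so that this cluster reached from 47.8% to 49.9% of the length by peak centres. The last peak spanned 14625151 to 14628450, again 3300 bp, at 81.3%. By width both 3300 bp peaks lay at the percentile 91.6 of all peaks, and the 450 bp peaks at 17.1. Together the 7 peaks covered 12000 bp, 9.02% of the gene. Among 2398 protein-coding symbols within 1.5 times its length the score of ATF7IP lay at the percentile 68.1, its number of peaks at 74.5 and its cover at 78.9, and 81.4% of those symbols had a peak. A peak in a gene of this length is thus common. The mark was not confined to ATF7IP. In the 100 kb upstream 14 peaks covered 20.25% of the sequence, and in the 100 kb downstream 8 peaks covered 12.2%. This flank cover, 16.2% over both sides, lay at the percentile 86.8 of protein-coding symbols. The nearest downstream gene, PLBD1, 4897 bp away, scored 65.6 (63.6 to 67.6) with 5 peaks.

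SETDB1 carried a single marked stretch near its 5' end. A 900 bp peak at 150903301 to 150904200 abutted one of 750 bp at 150904201 to 150904950. Joined, they span 1650 bp centred 5.39 kb from the 5' end, at 14.0% of the gene length, and cover 4.29% of the gene. Among 4035 protein-coding symbols of similar length 43.5% had a peak. Among them the score of SETDB1 lay at the percentile 33.2, its number of peaks at 76.5 and its cover at 69.7. Its score lay at the percentile 2.54 of the 8136 protein-coding symbols with a peak, whose median was 54.3. Upstream, 4 peaks lay within 100 kb, the nearest 16.0 kb away, and downstream of the gene the next peak was 386 kb away. Its last 4155 bp overlap CERS2, a ceramide synthase gene, which scored 16.1 and held 0 peaks, so the reads of that stretch are counted in both.

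TRIM28 had no peak and lay at the edge of a densely marked region. In the 100 kb upstream of it 23 peaks covered 52.7% of the sequence, and in the 100 kb downstream 1 peak covered 1.35%. This flank cover, 27.0% over both sides, lay at the percentile 95.1 of protein-coding symbols. The nearest upstream peak, 59047801 to 59051400 of chromosome 19, was 3600 bp wide and ended 4.44 kb before TRIM28. The 6 symbols of 1 kb or more in the upstream flank all held a peak and had a median score of 127, and the 3 in the downstream flank held 0 peaks and had a median of 22.5. The nearest upstream gene, ZBTB45, a BTB domain zinc finger gene, scored 129 (120 to 139), and CHMP2A, a gene of the ESCRT membrane machinery 851 bp downstream, scored 22.5. TRIM28 itself lay at the percentile 26.5 of 2328 protein-coding symbols of similar length, of which 19.7% had a peak.

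**Figure D2:**
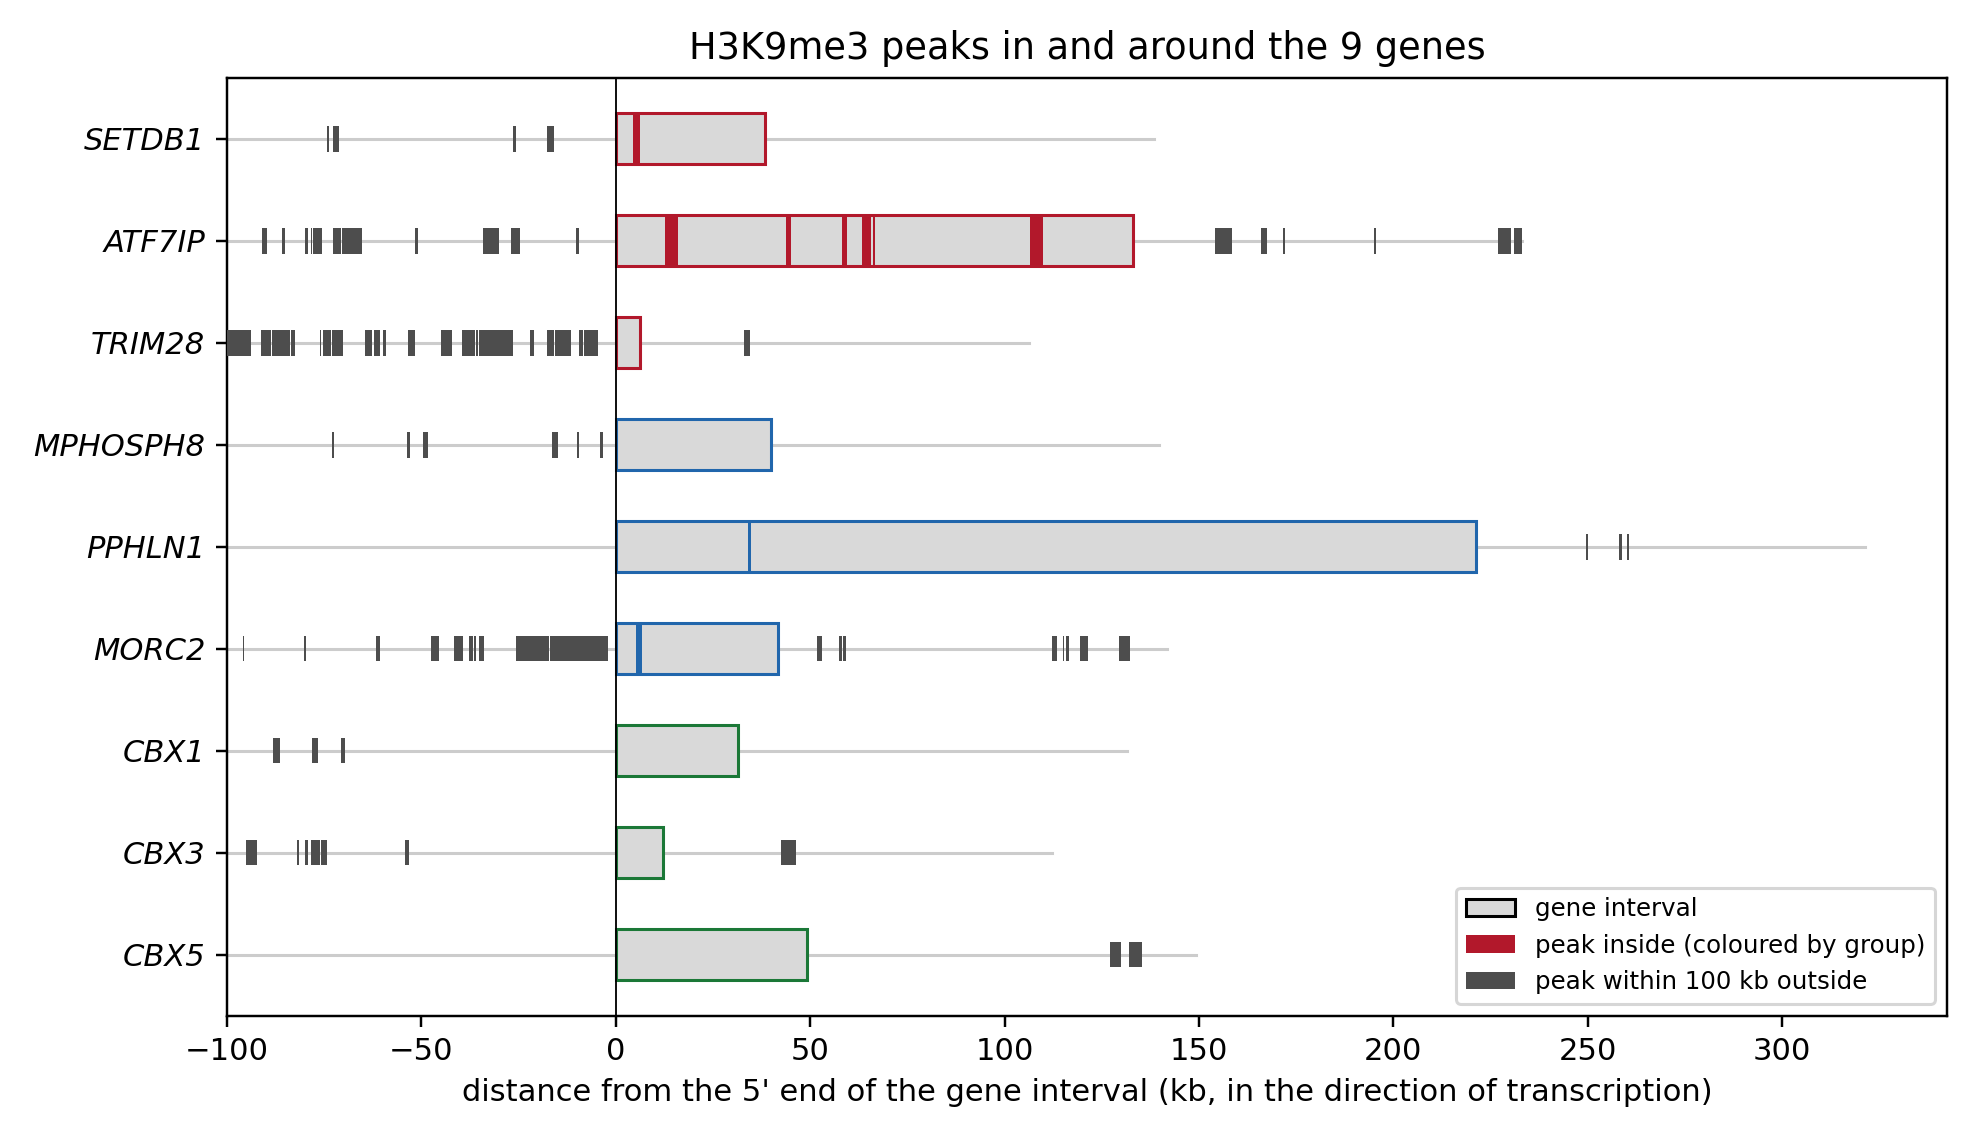
Peaks in and within 100 kb of the 9 genes, drawn to scale against the distance from the 5' end of the gene interval in kb (horizontal axis, 1 row per gene, all read in the direction of transcription); grey boxes are gene intervals, coloured blocks are peaks inside and dark blocks peaks outside. The 7 peaks of ATF7IP spread along the gene, with dark blocks on both sides of it. Dark blocks also crowd the upstream side of TRIM28 and MORC2, and the 3 HP1 genes are empty.

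In the HUSH group MORC2 had the highest score and MPHOSPH8 the lowest. MORC2, at 31322596 to 31364284 of chromosome 22 (minus strand, 41.7 kb), held 1773 reads and scored 42.5 (40.6 to 44.6). PPHLN1, at 42632249 to 42853517 of chromosome 12 (plus strand, 221 kb), held 6042 reads and scored 27.3 (26.6 to 28.0). MPHOSPH8, at 20207788 to 20247596 of chromosome 13 (plus strand, 39.8 kb), held 826 reads and scored 20.7 (19.4 to 22.2). MORC2 scored 2.05 times MPHOSPH8 (1.89 to 2.23) and 1.56 times PPHLN1 (1.48 to 1.64), and PPHLN1 1.32 times MPHOSPH8 (1.22 to 1.42). All 3 ratios exceed the counting error.

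MORC2 lay beside a broad marked region that began 1.92 kb upstream of it. Its own peak, 31357501 to 31359000 of chromosome 22, was 1500 bp wide and centred 6.03 kb from the 5' end, at 14.5% of the gene length, covering 3.60% of the gene. Upstream, a 9150 bp peak spanned 31366201 to 31375350, wider than most peaks at the percentile 99.0, and abutted further ones. It covered 93.9% of TUG1, a long noncoding RNA gene 1358 bp upstream of MORC2 on the opposite strand. TUG1 scored 270 (259 to 280). In all, 17 peaks covered 33.2% of the upstream 100 kb and 11 peaks covered 10.1% of the downstream 100 kb. The whole of MORC2 lies inside an interval of 1242 kb listed for MTMR3, so every read of MORC2 is counted there too. That interval also contains OSBP2 and TUG1 and was used as listed, as a stretch of chromosome 22 and not as 1 gene. Without MORC2 it scored 43.5 (43.2 to 43.9), and MORC2 over this remainder was 0.977 (0.931 to 1.02), not distinguishable at this depth. The antisense gene MORC2-AS1 shares 5841 bp with MORC2 and scored 26.6 (23.5 to 29.99). Reads from shotgun DNA carry no transcript strand, so reads of a shared stretch belong to both.

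PPHLN1, whose interval is the longest of the 9, held 1 peak. It spanned 42666151 to 42667050 of chromosome 12, 900 bp, centred 34.4 kb from the 5' end of the interval. That is 15.5% of the interval length, and the peak covered 0.407% of the interval. Among 1456 protein-coding symbols of similar length 92.2% had a peak, and PPHLN1 lay at the percentile 12.4 of them by number of peaks and 10.9 by score. Upstream of the gene the nearest peak was 239 kb away, and downstream it was 28.3 kb away, with 3 peaks in the 100 kb after the gene. At its 3' end PPHLN1 shares 1378 bp with PRICKLE1, a planar cell polarity gene, which scored 52.1 with 3 peaks, and 350 bp with RP11-328C8.4, which scored 64.6 with 0 peaks. ZCRB1, a splicing factor gene, lay inside the interval of PPHLN1 on the other strand. It scored 14.8 (12.9 to 17.0) over 14.0 kb, against 28.2 (27.4 to 28.9) for the rest of the interval. The ratio of ZCRB1 to this rest was 0.526 (0.456 to 0.604). Read density was thus uneven within the interval of PPHLN1 beyond counting error. The interval is 1.81 times as long as the RefSeq gene on GRCh38.p14 (122 kb, shorter than the 137 kb of ATF7IP there), whereas for the other 8 genes this ratio ran from 0.939 to 1.00. Whether the peak and ZCRB1 lie inside the shorter RefSeq gene was not tested, so both are placed by the interval alone. The symbols of similar length were also chosen by the interval length, so the percentiles of PPHLN1 among them share this limit.

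MPHOSPH8 had no peak, and the peaks near it all lay upstream. There were 6 in the 100 kb before it, covering 5.10%, the nearest at 20203801 to 20204400 of chromosome 13, 3.39 kb away and 600 bp wide. Downstream the next peak was 305 kb away. Its score lay at the percentile 27.1 of 4012 protein-coding symbols of similar length, of which 44.2% had a peak, and at 46.6 of the 10496 protein-coding symbols without one. MPHOSPH8, TRIM28 and ATF7IP are the 3 genes that overlap no other interval, so their reads are counted once.

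The 3 HP1 genes had low scores and no peaks. CBX3, at 26240782 to 26252976 of chromosome 7 (plus strand, 12.2 kb), held 233 reads and scored 19.1 (16.7 to 21.7). CBX5, at 54624724 to 54673955 of chromosome 12 (minus strand, 49.2 kb), held 800 reads and scored 16.2 (15.1 to 17.4). CBX1, at 46147414 to 46178883 of chromosome 17 (minus strand, 31.5 kb), held 429 reads and scored 13.6 (12.4 to 14.99), the lowest of the 9. CBX3 scored 1.40 times CBX1 (1.19 to 1.65) and 1.18 times CBX5 (1.01 to 1.36), and CBX5 1.19 times CBX1 (1.06 to 1.34). Among protein-coding symbols of similar length they lay at the percentiles 35.6 (CBX3), 12.6 (CBX5) and 8.18 (CBX1), and 22.5%, 50.0% and 38.2% of those symbols had a peak. Against the 10496 protein-coding symbols without a peak, whose median score was 21.8, they lay at 40.7, 28.3 and 15.9. No symbol of the table is named as a processed copy of any of the 9 genes, of which HP1 genes are known to have several, and how reads that fit a copy equally well were treated is not stated in the labels.

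The genes beside the HP1 genes ranged from low to high scores. CBX3 shares 368 bp with HNRNPA2B1, which starts in the other direction and encodes a splicing regulator; HNRNPA2B1 scored 10.7 (8.89 to 12.7). CBX5 starts 21 bp from HNRNPA1, its counterpart, which scored 9.57 (7.40 to 12.2). The bZIP factor genes NFE2L1, next to CBX1, and NFE2L3, next to CBX3, scored 15.4 and 32.0, and these 4 neighbours held 0 peaks. The sorting nexin genes SNX11, on the other side of CBX1, and SNX10, on the other side of CBX3, scored 22.0 and 26.7, SNX10 with 1 peak and SNX11 with 0. SMUG1, a DNA repair gene downstream of CBX5, was higher at 62.3 (59.2 to 65.5), and the 4 symbols of 1 kb or more in the 100 kb downstream of CBX5 had a median score of 76.1. The 7 in the 100 kb upstream of CBX5 had a median of 17.1, and the 2 upstream and 3 downstream of CBX1 had medians of 37.2 and 34.1. Of CBX5, 36.2% overlaps other intervals. The nested interval RP11-968A15.2 scored 15.7 and the rest of CBX5 16.5, a ratio of 0.949 (0.815 to 1.10). Peaks covered 9.15% of the 100 kb upstream and 3.90% of the 100 kb downstream of CBX3. For CBX1 the cover was 4.35% upstream and 0% downstream, and for CBX5 it was 0% upstream and 6.15% downstream, where 2 peaks lay.

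In order of score the 9 genes ran ATF7IP, MORC2, PPHLN1, SETDB1, MPHOSPH8, CBX3, CBX5, TRIM28 and CBX1. Of the 8 neighbouring pairs in this order, 5 differed beyond counting error, without adjustment for the number of pairs and with the order set by the same scores. Among these 5, SETDB1 over MPHOSPH8 (1.10, 1.002 to 1.21) and CBX3 over CBX5 (1.18, 1.01 to 1.36) barely excluded 1. The ratio of MPHOSPH8 to CBX3 was 1.09 (0.938 to 1.26), that of CBX5 to TRIM28 1.01 (0.816 to 1.25) and that of TRIM28 to CBX1 1.19 (0.945 to 1.48), so these 3 pairs were not distinguishable at this depth. From the highest to the lowest, ATF7IP scored 3.82 times CBX1 (3.47 to 4.23). The share of genes with a peak depends on length: among protein-coding symbols of similar length the share with a peak ran from 19.7% for TRIM28 to 92.2% for PPHLN1.

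**Figure D3:**
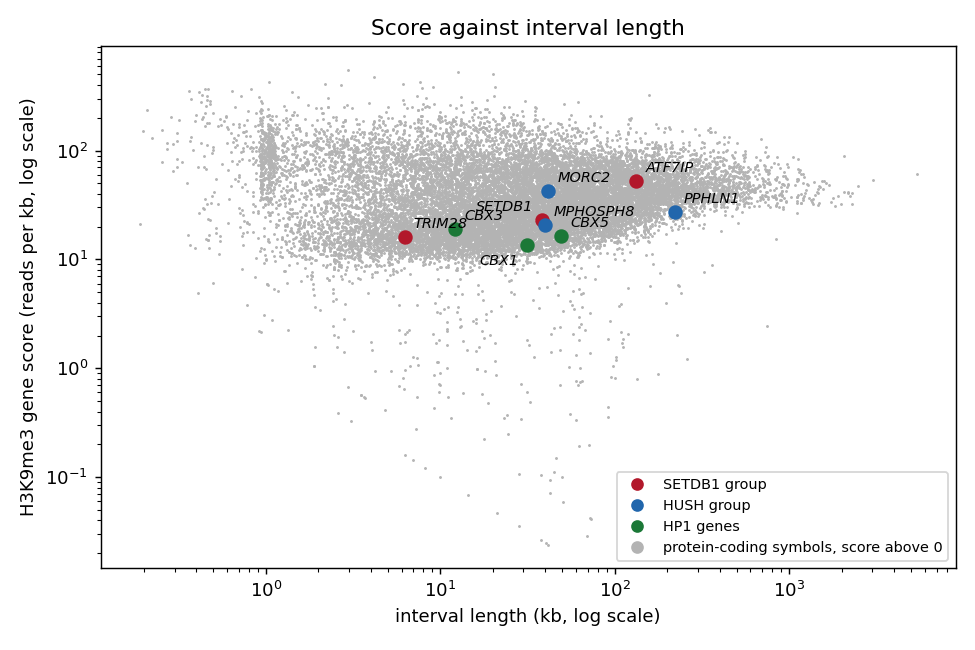
H3K9me3 gene score in reads per kb (vertical, log scale) against interval length in kb (horizontal, log scale) for the 9 genes, coloured by group, and for protein-coding symbols with a score above 0 in grey. ATF7IP at 52.1 and MORC2 at 42.5 lie somewhat above the middle of the grey cloud for their length, while CBX1 at 13.6 and PPHLN1 at 27.3 lie near its lower edge.

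In the 4 genes with peaks the centre of the first peak was at 13.0% of the length in SETDB1, 10.7% in ATF7IP, 15.5% in PPHLN1 and 14.5% in MORC2, or 5.01, 14.3, 34.4 and 6.03 kb from the 5' end. The place of the first peak over all symbols was not computed, so no shared trait is read from these values. That of PPHLN1 rests on an interval longer than its RefSeq gene. The 4 genes lie on 3 chromosomes, and exon and intron bounds on hg19 were not used here, so whether a peak lies in an exon is not given.

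Of 37 companion genes 17 had a peak and 15 scored above the median of protein-coding symbols, with a median of 26.3. The share of all protein-coding symbols with a peak, 43.7%, is the background for the count with a peak and is higher for long genes. The count of 17 is near it. The count of 15 stands against an even split, since the median divides protein-coding symbols evenly. The 16 partners of SETDB1 and HUSH had a median of 40.3 and 11 held a peak. ZNF274, a zinc finger protein of chromosome 19 known to recruit SETDB1, scored 285 (279 to 291) with 93.1% of its length in 1 peak. C12orf35, the file's name for RESF1, a SETDB1 cofactor, scored 141 (137 to 145) with 72.5% in 4 peaks. SUMO2, a modifier that links TRIM28 to SETDB1, was lowest at 7.99 (6.63 to 9.54). FAM208A, the symbol used here for TASOR, the HUSH scaffold, scored 22.1 (20.9 to 23.3). It completes the complex and was added after its values were seen. FAM208A held 0 peaks in its interval. A peak of 1200 bp, from 56717401 to 56718600 on chromosome 3, lay 0.136 kb from its 5' end, closer than in any of the 9 genes. A peak within 1 kb of the 5' end was found for 3 of the 37 companion genes, FAM208A, ZNF274 and LRIF1. The share among protein-coding symbols was 12.4%, so no trait of FAM208A is read from it.

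The 12 partners of HP1 had a median of 18.4 and 4 held a peak. LRIF1, a ligand of HP1, led them at 82.0 (77.8 to 86.5), followed by SP100, a nuclear body protein, at 66.5 (65.1 to 67.9), and HP1BP3, a linker histone relative, was lowest at 11.1 (10.1 to 12.1). The 4 Polycomb paralogs of HP1 analysed, which bind the H3K27 mark in place of H3K9, had a median of 22.7 and 0 held a peak. CBX2 was highest at 26.5 (23.3 to 29.99), CBX7 followed at 26.3 (24.6 to 28.2) and CBX6 was lowest at 17.9 (15.5 to 20.7). The 5 other H3K9 methyltransferases had a median of 22.2 and 2 held a peak, with EHMT1 highest at 57.4 (56.5 to 58.4), SETDB2 next at 30.9 (29.4 to 32.4) and EHMT2 lowest at 13.3 (11.6 to 15.1).

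**Figure D4:**
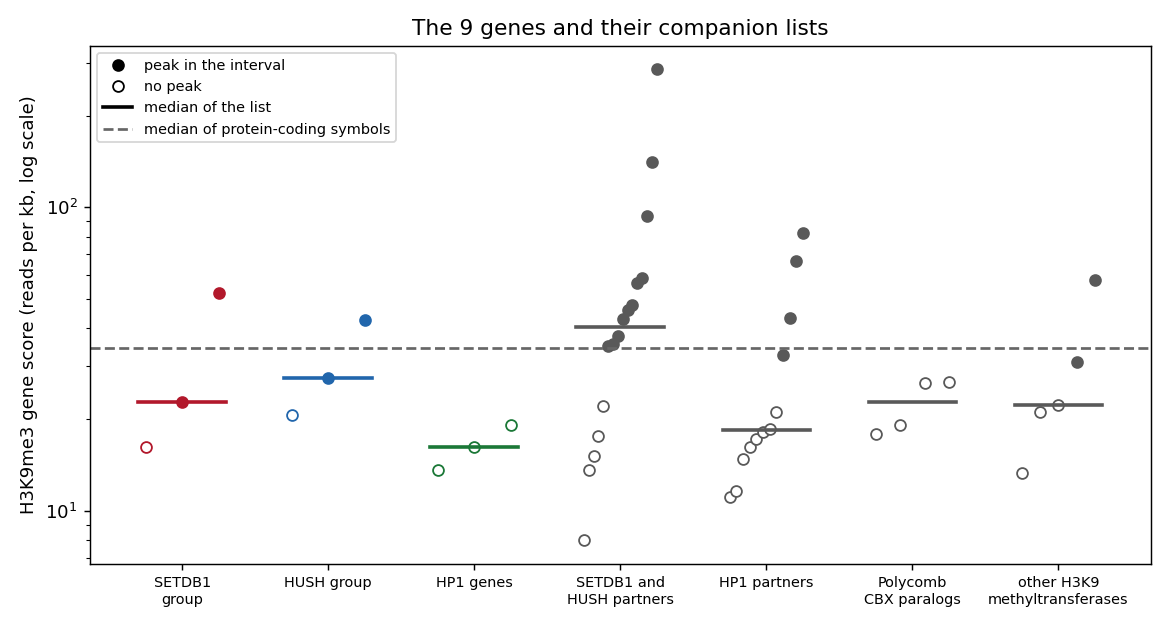
H3K9me3 gene score in reads per kb (vertical, log scale) of the 9 genes in their 3 groups and of the 4 companion lists; each point is a gene, filled where a peak lies in its interval, with the median of the list as a bar and that of protein-coding symbols (34.3) as a dashed line. The 3 HP1 genes and the 4 Polycomb paralogs are open points below the dashed line, and ZNF274 at 285 is the highest point.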

How the data were processed

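H3K9me3 was measured in 1 library of KBM7 cells, crosslinked with 1% formaldehyde and sheared to about 300 bp, per the labels' protocols. The deposited gene table gives a read count per gene interval, not normalised, the interval length in kb and a score, which equals the count over the length (largest difference 3.03e-06). It is not scaled to depth, IgG or copy number. The counts sum to 78512210 over 40237 intervals, some of which share reads, and are reads, not molecules. The deposited peak list holds 126965 positions with no height, on a grid of 150 bp. The submitters' processing notes list the build hg19 and the tools Bowtie2 and MACS, with neither role nor version.

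For symbols with several intervals the highest score was used. A percentile is the share of symbols, or of peaks for width, with a lower value, with equal values split evenly between lower and higher. Gene types came from RefSeq (GRCh38.p14), where 22088 of 35812 symbols had one. Symbols within 1.5 times a gene's length are called similar in length. Score intervals are exact Poisson, and ratio intervals exact conditional binomial, at 95%. Peaks overlap a gene from 1 bp. Named are the 9 genes, part of the overlapping and nearest genes, and the 2 highest and the lowest of each companion list. FAM208A was added after its values were seen. Neighbours not described above include YAF2, upstream of PPHLN1, at 26.9, and short intervals inside PPHLN1, from 68.6 (Y_RNA) to 162 (SNORA74). From the companion lists 1 gene is not reported here. The 9 genes and the lists were chosen with earlier results of these data known. With 1 library no p-value was computed. Score and ratio intervals were tested on simulated Poisson counts. Peak counts and cover were checked by a direct count on gene intervals drawn at random from these data. Values were computed with pandas 2.3.3 and numpy 2.4.6 under Python 3.11.15, intervals with scipy 1.17.1 and plots with matplotlib 3.10.9.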

Additional observations from a re-analysis of the deposited data

How the results depend on the processing

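The count of genes above the median of all symbols was 1, and 2 against protein-coding symbols, symbols of 1 kb or more, symbols outside chromosomes 8, 15 and 19, or the median of each gene's own chromosome, with MORC2 added in each case. With the longest or the mean interval of a symbol it stayed 1. The count of genes with a peak was 4 for an overlap of 150 bp and for peaks of 900 bp or wider, and 6 with 5 kb added on each side, where TRIM28 and MPHOSPH8 joined. The median of 20.7 was the same for ATF7IP, TRIM28 and MPHOSPH8, which overlap no other symbol, because MPHOSPH8 is the middle gene of both sets. Scores were the same for each choice of interval, since each gene has 1.

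Percentiles among all symbols moved more with the symbols they were set against. Among protein-coding symbols they were 31.1 for SETDB1, 71.0 for ATF7IP, 26.9 for MPHOSPH8, 39.1 for PPHLN1, 61.4 for MORC2, 23.2 for CBX3 and 16.0 for CBX5, against 23.9, 58.5, 20.9, 29.9, 49.0, 18.2 and 13.3 among all symbols. Among symbols of similar length they were 27.9 for SETDB1, 65.5 for ATF7IP, 19.8 for TRIM28, 23.0 for MPHOSPH8, 9.63 for PPHLN1, 59.2 for MORC2 and 27.5 for CBX3. On the same chromosome they were 29.8 for SETDB1, 63.4 for ATF7IP, 8.76 for MPHOSPH8, 33.4 for PPHLN1, 58.5 for MORC2 and 12.3 for CBX1. Of 58 alternatives, 21 could not change a value because each gene has 1 interval, and of the other 37 the value moved beyond its counting error, or 1.5 times the count, in 24. The 101 reads of TRIM28 limit its precision most. No paired analysis was possible because there is 1 library.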
